A study of Homo sapiens with 9 samples.

Results

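The ERK feedback and output genes are 10 genes whose transcription rises with ERK activity: the Sprouty genes SPRY1, SPRY2 and SPRY4, the Sprouty-related genes SPRED1 and SPRED2, the phosphatase genes DUSP4, DUSP5 and DUSP6, and the transcription factor genes ETV4 and ETV5. They were taken by symbol from the 58174 genes of the deposited tables. SPRY2 was selected on its measured value, as one of the stronger decreases upon IGF2BP1 depletion, and the other 9 were added because they belong to the same pathway. These 9 and the further lists below were chosen with earlier results of these data known. The shares of all genes set beside their counts are therefore a description. The siC and siIGF2BP1 values of SPRY2 chose it, and each comparison holds one of them, so SPRY2 is given below as a description, without a test.

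ES-2 is a cell line derived from an ovarian cancer, and all values come from this single line. Cells were transfected with control siRNAs (siC), siRNAs directed against IGF2BP1 (siIGF2BP1) or siRNAs directed against SRF (siSRF), and total RNA was extracted 72 h later. IGF2BP1 is an oncofetal RNA-binding protein that stabilises target mRNAs, and SRF is a transcription factor that works with co-factors downstream of ERK and of actin dynamics. Each of the 3 groups held 3 libraries, which the labels number but do not tie to separate cultures, so the p-values measure the spread between these libraries, which may be technical.

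Growth factor receptors activate RAS, which starts the RAF, MEK and ERK kinase cascade. ERK in turn induces genes that shut the cascade down again. Sprouty proteins act near the receptor and RAF, SPRED proteins bring the RAS inhibitor neurofibromin to the membrane, and the dual-specificity phosphatases remove the activating phosphates from ERK itself, DUSP6 in the cytoplasm and DUSP5 in the nucleus. ETV4 and ETV5 are ETS-family transcription factors that carry the ERK signal on to other genes. Because their RNAs follow ERK activity closely, these genes are widely used as a readout of pathway output, and in cells with an activated RAF or RAS gene they are transcribed at high levels without added growth factor.

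The libraries held 6421764 to 9416175 reads counted on genes. Both siRNAs lowered their targets: IGF2BP1 was at 12.8 ± 0.689 FPKM in siC and 4.11 ± 0.0846 in siIGF2BP1, and SRF was at 14.5 ± 1.28 FPKM in siC and 1.47 ± 0.145 in siSRF (mean ± SD, n = 3; FPKM is the read count scaled to gene length and library size). SRF also fell in siIGF2BP1, to 6.01 ± 0.714 FPKM, so the siIGF2BP1 cells had less of both RNAs, whereas IGF2BP1 was at 14.2 ± 0.455 FPKM in siSRF. Of the markers of the labelled tissue, the keratins KRT7 and KRT18 averaged 101 and 43.4 FPKM in siC. EPCAM, CDH1 and MUC16 were listed at 0 in every siC library, PAX8 and WT1 averaged 0.155 and 0.118 FPKM, and the mesenchymal marker VIM averaged 1055 FPKM. PTPRC, ALB and CD3E, which mark blood and liver cells, were listed at 0 in all 9 libraries. PECAM1, a marker of endothelial cells, averaged 0.313 FPKM in siC.

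The member genes lie on separate chromosomes, and the positions below are those of the main (Ensembl canonical) transcript in GRCh38. SPRY2 occupies 80335976 to 80341126 on chromosome 13 (minus strand) and has 2 exons. DUSP5 occupies 110497907 to 110511533 on chromosome 10 (plus strand) with 4 exons, and DUSP6 89347235 to 89352501 on chromosome 12 (minus strand) with 3 exons. ETV4 spans 43527846 to 43546340 on chromosome 17 and ETV5 spans 186046314 to 186109089 on chromosome 3, both on the minus strand and both in 13 exons. SPRY4 spans 142310430 to 142325021 on chromosome 5 (minus strand), and SPRED1 spans 38252836 to 38357249 on chromosome 15 (plus strand). SPRY1 lies on chromosome 4 and SPRED2 on chromosome 2.

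RefSeq promoters (GRCh38.p14) were matched by symbol for 6 members, SPRY1, SPRY2, SPRY4, SPRED1, SPRED2 and DUSP6, and not for DUSP4, DUSP5, ETV4 and ETV5. The 250 bases upstream of the start of the main transcript are printed for 3 genes that the results below turn on: SPRY2 and DUSP6, which were low upon IGF2BP1 depletion, and SPRED1, which was high upon SRF depletion. SPRY2 lies at chr13:80341127-80341376 on the minus strand, DUSP6 at chr12:89352502-89352751 on the minus strand and SPRED1 at chr15:38252586-38252835 on the plus strand. Capitals mark CCGGAA on either strand, a string of many ETS-family sites that holds their shorter core, GGAA. The core alone was not searched.
SPRY2: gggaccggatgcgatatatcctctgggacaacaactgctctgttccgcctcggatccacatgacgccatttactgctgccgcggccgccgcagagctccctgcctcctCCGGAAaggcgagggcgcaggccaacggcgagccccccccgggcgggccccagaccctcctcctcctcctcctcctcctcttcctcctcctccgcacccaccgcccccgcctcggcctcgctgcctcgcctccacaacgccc
DUSP6: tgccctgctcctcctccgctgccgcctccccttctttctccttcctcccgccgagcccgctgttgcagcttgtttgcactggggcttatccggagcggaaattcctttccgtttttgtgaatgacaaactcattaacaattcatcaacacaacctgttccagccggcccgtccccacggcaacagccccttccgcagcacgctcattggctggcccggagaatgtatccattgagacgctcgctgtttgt
SPRED1: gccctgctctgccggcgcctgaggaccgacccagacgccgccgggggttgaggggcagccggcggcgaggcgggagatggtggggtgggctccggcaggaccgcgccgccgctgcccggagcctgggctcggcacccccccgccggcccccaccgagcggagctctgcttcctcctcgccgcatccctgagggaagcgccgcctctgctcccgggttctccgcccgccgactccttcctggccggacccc
In SPRY2 the CCGGAA began 142 bases before the start of the RNA, and the DUSP6 and SPRED1 windows did not hold these letters. Of the 10 promoters listed for the 6 genes, 2 held them, the one of SPRY2 printed here and that of a downstream start of SPRY1, where they began 67 bases before the start. Of all 35116 RefSeq promoters, 14.5% held CCGGAA in the same 250 bases. The AP-1 letters TGANTCA and the CArG box, the sequence SRF binds, were searched on both strands too, with no overlap among the matches. They stood in 6.57% and 1.16% of all promoters, and in none of the 10 promoters listed for these 6 genes. The searched motifs were chosen after expression values had been seen, and a match or its absence describes the letters of this window and no more.

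The 3′UTRs of the main transcripts were searched for the letters complementary to the seeds (bases 2 to 8) of let-7 and miR-21, since IGF2BP1 is known to shield mRNAs from microRNAs, let-7 is a tumour-suppressive family and miR-21 is known to act on Sprouty mRNAs. The mature sequences are printed with the seed in capitals.
hsa-let-7a-5p: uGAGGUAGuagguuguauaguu
hsa-miR-21-5p: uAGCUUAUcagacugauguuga
The let-7 letters CTACCTC stood in 9.71% of the 3′UTRs of 19228 protein-coding transcripts and in none of the 10 members. The miR-21 letters ATAAGCT stood in 8.68% of all 3′UTRs, in 11.1% of the 10939 within the members' range of length, and in 4 of the 10 members. SPRY1, SPRY2 and SPRY4 are among these 4, and miR-21 was picked for its known action on Sprouty mRNAs. The shares therefore cannot show whether the letters are frequent in the list for another reason. The matches lie at chr13:80336505-80336534 (minus strand) in SPRY2, chr10:110510875-110510904 (plus) in DUSP5, chr5:142311957-142311986 (minus) in SPRY4 and chr4:123402954-123402983 (plus) in SPRY1, with the complementary letters in capitals.
SPRY2: cccatgtattgcATAAGCTaaagcaacaca
DUSP5: ttgcttcggggcATAAGCTgatcaccgtct
SPRY4: gagtcgatttacATAAGCTgtgtatacaca
SPRY1: ttaattgcttaaATAAGCTatgtattaaat
SPRY2, DUSP5 and SPRY4 were low upon IGF2BP1 depletion, and SPRY1 overlapped its controls. DUSP6, ETV4 and ETV5, which were lower too, held neither set of letters. The 3′UTRs had a median length of 2172 bases in the members against 1064 over all transcripts, and ranged from 673 bases in ETV4 to 5585 in SPRED1. Whether any of these letters is bound by a microRNA in ES-2 cells was not tested.

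In control cells, DUSP5 was the most abundant member at 50.7 ± 1.85 FPKM, followed by SPRY2 at 43.8 ± 0.744 FPKM, and the ranges of these 2 genes did not overlap. SPRED1, DUSP6 and ETV5 formed a middle group at 23.8 ± 1.18, 21.9 ± 0.842 and 20.4 ± 0.936 FPKM. DUSP6 and ETV5 overlapped each other. ETV4, SPRED2 and SPRY4 followed at 9.23 ± 0.253, 9.07 ± 0.700 and 7.54 ± 1.07 FPKM, where each overlapped its neighbour in the order. DUSP4 at 3.22 ± 0.298 FPKM and SPRY1 at 1.80 ± 0.435 FPKM were lowest, and SPRY1 rested on only 36 to 63 reads in a siC library.

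**Figure D1:**
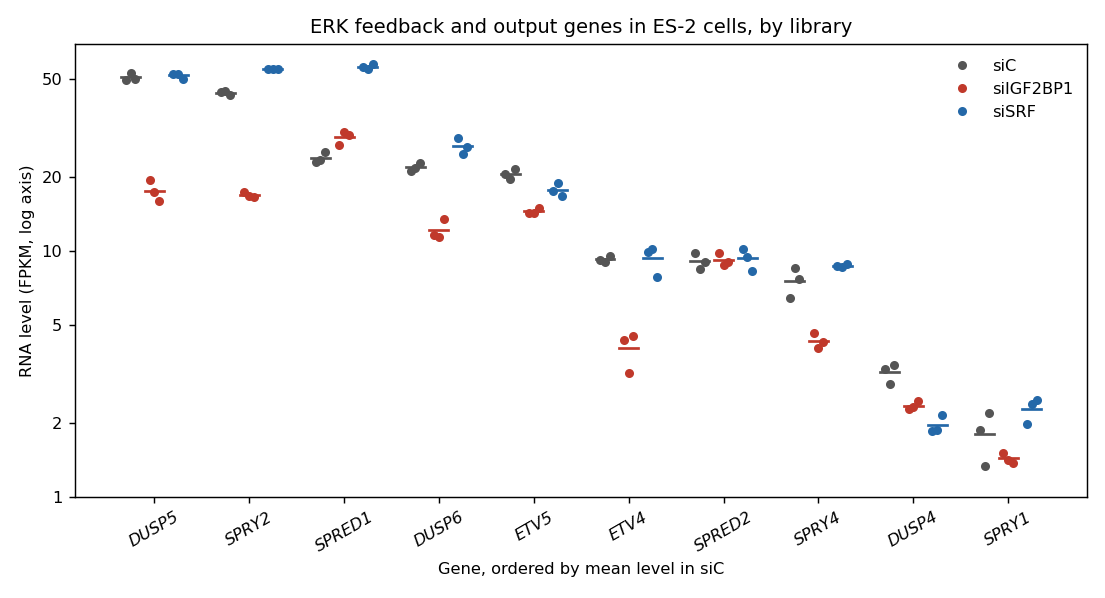
RNA level of the 10 genes in FPKM (log axis) in each of the 9 libraries, ordered by the mean in siC, with 1 point per library and a bar at the group mean. The siIGF2BP1 points lie below all siC points for DUSP5, SPRY2, DUSP6, ETV5, ETV4, SPRY4 and DUSP4, and the siSRF points of SPRED1 lie between 54.9 and 57.3 FPKM, above all others of that gene.

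Upon IGF2BP1 depletion, most of the abundant members followed SPRY2 downwards, and the SPRED genes did not. DUSP5, DUSP6, ETV4, ETV5 and SPRY4 fell to between 34.6% and 70.7% of the control level. These are 5 of the 9 members other than SPRY2, read at an adjusted p of at most 0.01, where 3.57% of all 22292 genes tested and 5.50% of the genes with at least 1 FPKM were called lower. The median log2 difference of the 9 was -0.50, against 0.017 over all genes tested. The 9 were listed with earlier results of these data known, so this contrast with all genes is a description. Fewer cells transcribing a gene and less RNA per cell cannot be told apart in these bulk libraries. No member was called higher by limma, where 3.55% of all genes were; 1 member, SPRED1, was higher at an unadjusted p under 0.05 and in a limma-voom fit on recovered reads.

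DUSP5, the nuclear ERK phosphatase, showed the largest decrease among the members. Its level was 49.4, 52.8 and 49.8 FPKM in the siC libraries and 19.5, 17.2 and 15.9 FPKM in the siIGF2BP1 libraries. Every siIGF2BP1 library was thus far below every control, and the log2 difference was -1.53 ± 0.0789 (SE; adjusted p = 0.000237). Of 10419 protein-coding genes with at least 1 FPKM, DUSP5 was rank 32 from the lowest log2 difference. SPRY2, the Sprouty gene on which the selection rested, was at 44.2, 44.3 and 43.0 FPKM in siC and at 17.4, 16.6 and 16.6 FPKM in siIGF2BP1. This is 38.5% of the control mean, a log2 difference of -1.37 and rank 46 from the lowest, all values that the selection used. DUSP5 and SPRY2, the most abundant members in siC, averaged 17.5 ± 1.78 and 16.9 ± 0.455 FPKM after depletion, where their ranges overlapped and SPRED1 at 28.9 ± 1.77 FPKM was the most abundant member, above both.

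DUSP6, the cytoplasmic ERK phosphatase, was at 21.1, 21.7 and 22.8 FPKM in siC and 11.5, 11.4 and 13.5 FPKM in siIGF2BP1. The groups were well apart, with a log2 difference of -0.85 ± 0.0787 (adjusted p = 0.00148). ETV4 was at 9.15, 9.02 and 9.51 FPKM in siC and 4.34, 3.19 and 4.52 FPKM in siIGF2BP1, a log2 difference of -1.20 ± 0.138 (adjusted p = 0.00311) and rank 75 from the lowest. Its relative ETV5 fell to 70.7% of the control mean, from 20.4, 19.5 and 21.4 FPKM to 14.3, 14.2 and 14.9 FPKM, a log2 difference of -0.50 ± 0.0531 (adjusted p = 0.00236). SPRY4 was at 6.41, 8.54 and 7.67 FPKM in siC and 4.64, 4.02 and 4.24 FPKM in siIGF2BP1. Its controls were spread more widely than those of DUSP6, ETV4 and ETV5. The log2 difference of -0.79 ± 0.123 lay just inside the threshold (adjusted p = 0.00859) and just outside it without the filter on low values (0.0107).

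SPRED1, SPRED2, DUSP4 and SPRY1 did not pass the threshold in limma. SPRED1 was at 23.0, 23.3 and 25.2 FPKM in siC and 26.9, 30.4 and 29.5 FPKM in siIGF2BP1, so every depleted library was above every control (log2 difference 0.28 ± 0.0639, adjusted p = 0.0328). SPRED2 was at 9.81, 8.42 and 8.99 FPKM in siC and 9.79, 8.78 and 9.02 FPKM in siIGF2BP1, which overlapped fully, and the 95% confidence interval of its log2 difference ran from -0.17 to 0.21. DUSP4, a nuclear phosphatase that also acts on other MAP kinases, was at 3.32, 2.88 and 3.45 FPKM in siC and 2.26, 2.32 and 2.46 FPKM in siIGF2BP1 (log2 difference -0.43 ± 0.116, adjusted p = 0.0528). Limma-voom on recovered reads called DUSP4 lower (adjusted p = 0.00628). SPRY1 was at 1.87, 1.34 and 2.20 FPKM in siC and 1.51, 1.42 and 1.37 FPKM in siIGF2BP1, and its interval from -0.79 to 0.22 held decreases as large as that of SPRY4.

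With 3 libraries against 3, an exact two-sided permutation test of 1 gene cannot go below p = 0.1, the value it gave for DUSP5, DUSP6, ETV4, ETV5, SPRY4, SPRED1 and DUSP4, so the calls rest on the fit across all genes. Leaving out any 1 of the 6 libraries kept the calls of DUSP5 (adjusted p up to 0.00311) and DUSP6 (up to 0.00922). ETV4 missed the threshold without any of the 3 siC libraries or siIGF2BP1 library 1 or 3 (adjusted p 0.0112 to 0.0164), ETV5 without siC library 1 or any siIGF2BP1 library (0.0127 to 0.0136), and SPRY4 without siC library 2 or 3 or any siIGF2BP1 library (0.0233 to 0.0397). Accordingly 2 or 3 of the 9 members were called lower with 1 library left out, and 2 without siIGF2BP1 library 1 or 3. Over all genes, these fits called 224 to 329 lower, against 796 with all 6 libraries. All 5 log2 differences kept their sign and stayed at or below -0.46 in these fits. Scaling the libraries to equal sums over protein-coding genes moved the median log2 difference of all genes from 0.017 to 0.13 and the called genes from 796 lower and 792 higher to 506 lower and 1254 higher, and left SPRY4 outside the threshold (-0.67, adjusted p = 0.0108).

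**Figure D2:**
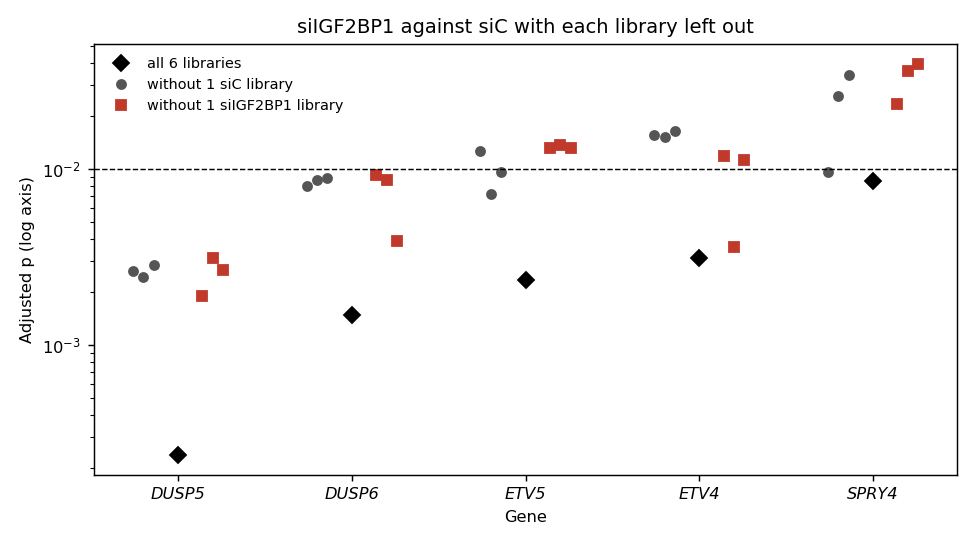
Adjusted p (log axis) of the 5 members called lower in siIGF2BP1 against siC, with all 6 libraries (diamonds) and with 1 siC library (circles) or 1 siIGF2BP1 library (squares) left out. The dashed line is the threshold of 0.01, below which all points of DUSP5 and DUSP6 lie.

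Upon SRF depletion, SRF was lower than in siIGF2BP1, and DUSP5, DUSP6, ETV4, ETV5 and SPRY4 did not pass the test in either direction. SPRED1 rose, 1 of the 9 members other than SPRY2, where 6.85% of all 21857 genes tested and 10.5% of the genes with at least 1 FPKM were called higher. No member was called lower by limma, where 5.34% of all genes were. At an unadjusted p under 0.05, 2 members, DUSP4 and ETV5, were lower, and 1, DUSP4, was called lower in the limma-voom fit. Limma-voom called 2 members higher, SPRED1 and DUSP6. The median log2 difference of the 9 was 0.032, against 0.0074 over all genes tested. The siC libraries are the same 3 as in the other comparison.

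SPRED1, which recruits neurofibromin to RAS, rose from 23.8 ± 1.18 FPKM in siC to 55.5, 54.9 and 57.3 FPKM in the siSRF libraries. This was 235% of the control mean, a log2 difference of 1.23 ± 0.0483 (adjusted p = 9.60e-05) and rank 68 from the highest of 10284 protein-coding genes, and it made SPRED1 the most abundant member together with SPRY2, whose range it overlapped. SPRY2 was at 54.9, 54.6 and 54.8 FPKM in siSRF, all above the controls, with a log2 difference of 0.32, given without a test since the siC values took part in its selection. The adjusted p of SPRED1 stayed at or below 0.00218 with any library left out.

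DUSP5 was at 52.4, 52.4 and 49.9 FPKM in siSRF, within the spread of its controls, and the 95% confidence interval of the log2 difference ran from -0.081 to 0.13. ETV4 was at 9.91, 10.2 and 7.82 FPKM, also overlapping the controls, with an interval from -0.26 to 0.26. Their log2 differences upon IGF2BP1 depletion, -1.53 and -1.20, lie outside both intervals. The signs of both near-zero differences changed with the scaling. DUSP6 was at 28.7, 24.8 and 26.4 FPKM, above all its controls, but did not pass in limma (log2 difference 0.28 ± 0.0652, adjusted p = 0.0244), whereas limma-voom called it higher (adjusted p = 0.00250). ETV5 was at 17.4, 18.9 and 16.6 FPKM, below all its controls, and did not pass either (-0.21 ± 0.0639, adjusted p = 0.0591).

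SPRY4 was at 8.65, 8.58 and 8.81 FPKM in siSRF (log2 difference 0.21 ± 0.108, adjusted p = 0.228). SPRED2 at 10.2, 9.43 and 8.26 FPKM overlapped its controls, with an interval from -0.21 to 0.27 and a sign that changed with the scaling. SPRY1 at 1.98, 2.38 and 2.46 FPKM overlapped its controls too (0.34 ± 0.209, adjusted p = 0.312). DUSP4 was at 1.85, 1.87 and 2.15 FPKM in siSRF, below all its controls, a log2 difference of -0.69 ± 0.126. Its adjusted p of 0.0110 narrowly missed the threshold, and it passed in 6 alternative fits at that threshold with adjusted p from 3.19e-05 to 0.00901.

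**Figure D3:**
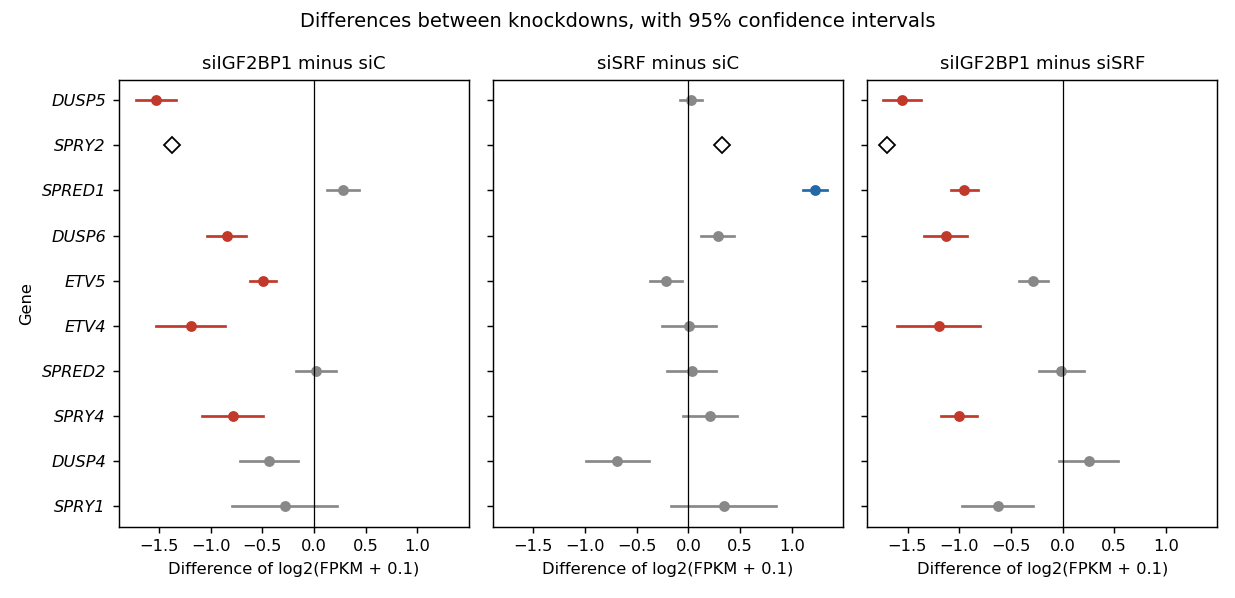
Difference of log2(FPKM + 0.1) between groups for each gene, with 95% confidence intervals, for siIGF2BP1 minus siC, siSRF minus siC and siIGF2BP1 minus siSRF. Red points were called lower and blue points higher at an adjusted p of at most 0.01, grey points were not called, and open diamonds show SPRY2, whose values were used for the selection and were not tested. DUSP5, DUSP6, ETV4 and SPRY4 are red in the left and right panels and grey in the middle one.

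The 2 depletions were compared directly, with no siC library in the fit. DUSP5, DUSP6, ETV4, SPRY4 and SPRED1 were lower in siIGF2BP1 than in siSRF, 5 of the 9 members other than SPRY2, where 11.2% of all 22311 genes tested and 17.2% of the genes with at least 1 FPKM were called lower. No member was higher, by limma, by limma-voom or at an unadjusted p under 0.05, where 8.82% of all genes were called higher. The difference was -1.55 ± 0.0755 for DUSP5 (adjusted p = 4.84e-05), -1.20 ± 0.165 for ETV4 (0.00231), -1.13 ± 0.0865 for DUSP6 (0.000230), -0.999 ± 0.0721 for SPRY4 (0.000187) and -0.95 ± 0.0525 for SPRED1 (7.56e-05), on the log2 scale. SPRED1 stood at 28.9 ± 1.77 FPKM in siIGF2BP1 and 55.9 ± 1.23 FPKM in siSRF, both above siC, so its difference reflects the rise in siSRF and no fall in siIGF2BP1. SPRY2 was at 30.8% of its siSRF level, given without a test. ETV4 missed the threshold without siSRF library 1 or 2 (adjusted p 0.0122 and 0.0132).

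ETV5 (-0.28 ± 0.0578, adjusted p = 0.0114), SPRY1 (-0.63 ± 0.142, adjusted p = 0.0172) and DUSP4 (0.25 ± 0.119, adjusted p = 0.167) did not pass in the direct comparison. ETV5 passed in 5 alternative fits at that threshold (adjusted p 0.000562 to 0.00807), limma-voom among them, which also called SPRY1 lower (0.00422). SPRED2 overlapped between both, with an interval from -0.23 to 0.21 and a sign that changed with the scaling. Thus DUSP5, DUSP6, ETV4 and SPRY4 were lower in siIGF2BP1 both than in siC and than in siSRF, whereas ETV5 passed against siC and missed the threshold against siSRF in the limma fit. The same siIGF2BP1 libraries serve both comparisons, which are therefore not independent. Scaling to equal protein-coding sums moved the split of all called genes in this comparison from 2492 lower and 1968 higher to 1767 lower and 2663 higher, and the median of all genes by 0.115.

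Further genes of the pathway were taken from 3 lists: 18 other feedback regulators, 20 genes of the cascade from adaptor to ERK and its kinases, and 16 other genes that ERK activity is known to induce. The lists were drawn up with earlier results of these data known, so the shares beside their counts are a description. Of these 54 genes, 51 were tested, since DUSP2, DUSP8 and DUSP9 were at or near 0 in all libraries. Upon IGF2BP1 depletion 13 of the 51 fell and 2 rose, beside the shares of 3.57% and 3.55% given above for all genes. The share called lower was 5.50% among the genes with at least 1 FPKM. The median log2 difference of the 51 was -0.26 against 0.017. Upon SRF depletion 2 fell and 11 rose, beside 5.34% and 6.85%, with a median of 0.062 against 0.0074. Here the share called higher was 10.5% among the genes with at least 1 FPKM. With 1 library left out, the 13 became 3 (without siIGF2BP1 library 3) to 7 (without siC library 1), and the 11 became 4, 5 or 6 without siSRF library 2, 3 or 1. Over all genes, the 796 lower in siIGF2BP1 became 224 without siIGF2BP1 library 3 and 329 without siC library 1. The 1498 higher in siSRF became 464, 619 and 519 without siSRF library 2, 3 and 1.

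Among the 15 feedback regulators tested, 5 fell, 2 rose and 8 did not pass upon IGF2BP1 depletion. Of all genes, 3.57% were called lower and 3.55% higher. DUSP16, a phosphatase of the JNK and p38 kinases, fell from 5.24 ± 0.230 to 2.78 ± 0.174 FPKM (log2 difference -0.89, adjusted p = 0.00209). CBL, the ubiquitin ligase that degrades activated receptors, fell by 0.69 on the log2 scale, and ERRFI1, an inhibitor of the EGF receptor, fell from 183 ± 13.0 to 115 ± 1.59 FPKM (-0.66). LRIG1, a membrane protein that restrains the EGF receptor, rose from 4.36 ± 0.210 to 8.76 ± 0.211 FPKM (0.99, adjusted p = 0.000601). Upon SRF depletion, 4 rose and 11 did not pass, beside 6.85% of all genes called higher. LRIG1 rose by 0.58 there, and RASA2 and RASA1, both GTPase-activating proteins that switch RAS off, by 1.10 and 0.34.

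DUSP1, a nuclear phosphatase that is an immediate early gene, moved in opposite directions. It was at 9.53, 9.99 and 10.5 FPKM in siC, at 6.72, 6.04 and 7.02 FPKM in siIGF2BP1 and at 47.2, 49.2 and 49.2 FPKM in siSRF. The 3 groups did not overlap, and the log2 differences from siC were -0.60 in siIGF2BP1 and 2.27 in siSRF.

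In the cascade, 3 of 20 genes fell and 17 did not pass upon IGF2BP1 depletion, beside 3.57% of all genes called lower. Among the 3 were the genes of both MEK kinases. MAP2K2 was at 28.5 ± 1.74 FPKM in siC and 19.4 ± 1.00 in siIGF2BP1 (-0.55), and MAP2K1 at 30.6 ± 0.819 and 21.8 ± 1.42 (-0.49). Upon SRF depletion 2 fell and 18 did not pass: MAPK3, which encodes ERK1, by 0.69 and MAP2K2 by 0.67 on the log2 scale. They were the only 2 of the 51 further genes called lower there, beside 5.34% of all genes.

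Of the 16 other output genes, 5 fell and 11 did not pass upon IGF2BP1 depletion. Called lower were 3.57% of all genes and 5.50% of those with at least 1 FPKM. A negative log2 difference was seen in 15 of the 16, and their median was -0.43, against 0.017 over all genes tested. HBEGF, a ligand of the EGF receptor, fell from 27.9 ± 1.54 to 10.1 ± 1.32 FPKM (-1.46). MAFF, a small bZIP factor, fell by 1.29, PLAUR, the urokinase receptor, by 0.84, the cytokine gene LIF by 0.66 and FOSL1, a subunit of AP-1, by 0.50 on the log2 scale. Upon SRF depletion 7 rose and 9 did not pass, beside 6.85% of all genes and 10.5% of those with at least 1 FPKM called higher. HBEGF rose to 45.3 ± 0.926 FPKM (0.70), MAFF from 4.84 ± 0.411 to 11.3 ± 0.354 FPKM (1.22), PLAUR to 45.3 ± 2.65 FPKM (0.90), the ephrin receptor gene EPHA4 by 0.72 and the pseudokinase gene TRIB1 by 0.61. HBEGF, MAFF and PLAUR thus lay below siC in siIGF2BP1 and above siC in siSRF, with the same siC libraries in both. SPRY2, whose values were used for its selection, did so too.

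**Figure D4:**
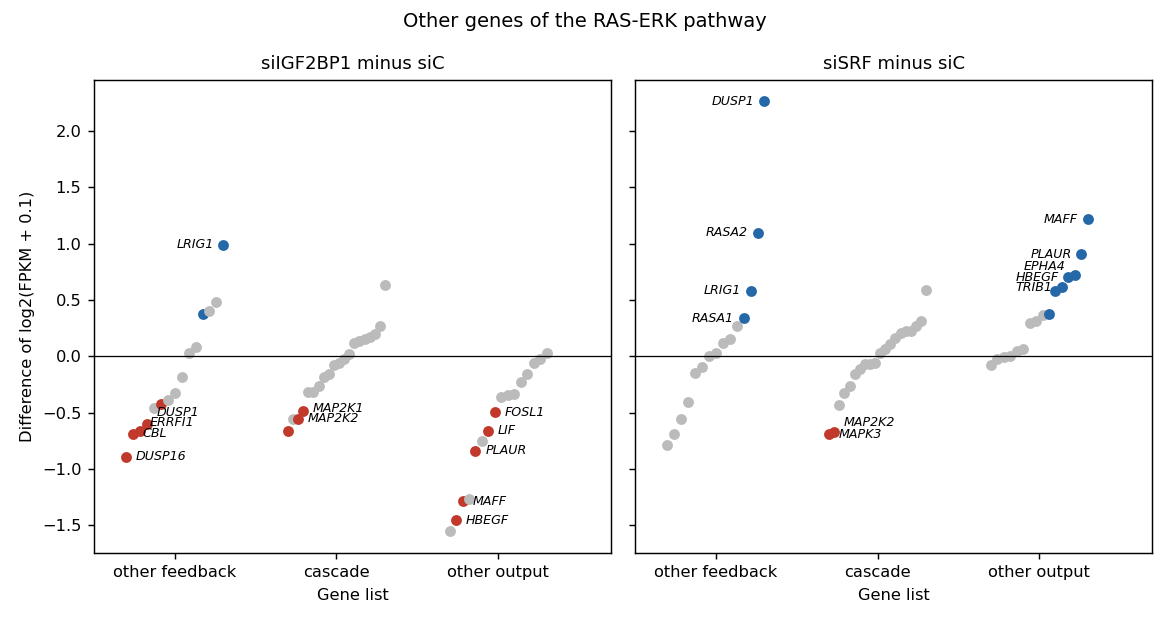
Difference of log2(FPKM + 0.1) from siC for the 51 further pathway genes tested, in siIGF2BP1 (left) and siSRF (right), sorted within each of 3 lists. Red genes were called lower and blue genes higher at an adjusted p of at most 0.01, grey genes were not called, and some of the called genes are named. Called output genes lie below 0 in the left panel and above 0 in the right one.

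Genes that overlap a member on the other strand were looked up, since the library kit was directional but the counting setting is not given in the sources used here. SPRY4-AS1, antisense to SPRY4, averaged 0.912 FPKM in siC, 0.266 in siIGF2BP1 and 0.594 in siSRF. DHX8, which overlaps ETV4 on the opposite strand, averaged 8.94, 8.09 and 8.22 FPKM, so the level of ETV4 in siIGF2BP1, 4.02 ± 0.719 FPKM, was below that of DHX8. The part of these neighbours in the values of SPRY4 and ETV4 was not tested.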

How the data were processed

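Total RNA of 9 ES-2 libraries was depleted of ribosomal RNA and sequenced from directional libraries. Per the labels and the study's methods, the authors clipped reads with Cutadapt 1.14, aligned them with HISAT2 2.1.0 to GRCh38 (SAMtools 1.5), counted them on Ensembl 89 genes with featureCounts 1.5.3 and normalised with edgeR 3.18.1 (TMM). The deposited values are FPKM, in one table per depletion, with the gene length in bases (another deposited column). The 3 siC columns are identical in both tables, so the depletions share one scale. The deposited fold changes and p-values of the authors' own comparisons were not used.

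FPKM times length gave whole reads for 100% of the non-zero values checked (tolerance 0.01). Values with the highest read counts were not checked. Groups were compared with limma 3.58.1 (R 4.3.3; trended variance, two-sided) on log2(FPKM + 0.1), keeping genes whose mean over the libraries compared reached 0.1 FPKM, with Benjamini-Hochberg adjustment over all genes and calls at an adjusted p of at most 0.01. Fold changes are on this scale, which understates changes of low genes. Confidence intervals are 95%. Single genes were also tested by exact permutation (SciPy 1.17.1), and limma-voom was run on the recovered reads. The fit was also run on simulated data. Their spread beyond counting noise was set equal for all genes, which these libraries need not share, and no result rests on that run. Other pseudocounts, filters, scalings, thresholds, adjustments and sample sets, a replicate block and leaving out each library were tried. Same-numbered libraries did not deviate together (correlations of -0.0438 to 0.0186), so numbers were not treated as pairs.

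Members and gene lists were chosen with earlier results of these data known. SPRY2 was planned to be tested in siSRF against siC and was left out of that count, since its siC values took part in its selection. All members are named, and of each list up to 5 called genes per depletion with the largest change and at least 1 FPKM; DUSP2, DUSP8, DUSP9 and overlapping genes were named after their values were seen. Items withheld from the text are not reported here. Main transcripts come from GENCODE 44 and promoters and microRNAs from RefSeq.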

Additional observations from a re-analysis of the deposited data

How the results depend on the processing

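Of the 10 counts over the lists, those of the direct comparison stayed within 1.5 times their value in all alternatives. With the replicate block, 1 member was lower in siIGF2BP1 (DUSP5), and of the other pathway genes 1 was lower and 0 higher in siIGF2BP1 and 0 lower and 4 higher in siSRF; over all genes the block left 31 lower and 60 higher in siIGF2BP1 by limma, and 998 and 969 at an adjusted p of at most 0.05, and ETV4 was lost in the direct comparison (adjusted p = 0.0167). Limma-voom on recovered reads called 6 members lower (DUSP4 added) and 1 higher in siIGF2BP1 (SPRED1), 1 lower (DUSP4) and 2 higher in siSRF (SPRED1 and DUSP6) and 7 lower between the depletions (ETV5 and SPRY1 added), and of the other pathway genes 4 higher in siIGF2BP1 and 6 lower and 17 higher in siSRF. It called 1891 genes lower in siIGF2BP1 and 2343 in siSRF, against 796 and 1167 by the limma fit described. The fit of all 9 libraries called 1 member higher in siIGF2BP1 and 1 lower in siSRF, and the threshold of 0.05 did the same, with 2 members higher in siSRF, and gave 4 other pathway genes lower in siSRF. Robust variances, median-ratio rescaling, a filter at a mean of 1 FPKM and adjustment over protein-coding genes each called 1 member lower in siSRF, which was DUSP4. With a pseudocount of 1, without the filter, or with trends along GC content and gene length taken out (added after the data were seen), 1 other pathway gene was higher in siIGF2BP1.

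With each library left out, the members counted were 2 to 3 lower in siIGF2BP1, and 1 higher upon SRF depletion. Of the other pathway genes 3 to 7 were lower and 1 higher in siIGF2BP1, and 0 to 1 lower and 4 to 10 higher in siSRF. Over all genes, these fits called 224 to 329 lower and 212 to 420 higher in siIGF2BP1. In siSRF they called 482 to 673 lower and 464 to 1123 higher. Signs turned only for differences near 0 in siSRF or of SPRED2. With a library left out, SPRED2 ranged from -0.031 to 0.078 in siIGF2BP1, from -0.037 to 0.11 in siSRF and from -0.093 to 0.057 between the depletions, and ETV4 from -0.066 to 0.12 in siSRF. By median-ratio rescaling SPRED2 became -0.0041, DUSP5 -0.011 and ETV4 -0.034 in siSRF, and SPRED2 0.039 between the depletions. By the protein-coding sums ETV4 became -0.0036 in siSRF and SPRED2 0.12 between the depletions. The cause of these shifts was not tested. SPRY1 rested on 36 to 86 reads in a library, the fewest of the members.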

Other observations

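Over the 9 libraries, the protein-coding genes of at least 1 FPKM whose log2 levels ran most like those of SPRY2 were HSPD1, a mitochondrial chaperonin (Pearson r = 0.997), PSMD2, a proteasome subunit (0.995), and NRIP3 (0.995), among 10380 genes. HSPD1 averaged 209 ± 4.68 FPKM in siC, 110 ± 1.53 in siIGF2BP1 and 229 ± 2.90 in siSRF, and NRIP3 22.1 ± 0.577, 6.50 ± 0.335 and 26.5 ± 2.08 FPKM. Those most like DUSP6 were FAM83G (0.996), FABP5, a fatty acid binding protein (0.993), and FUT8, a fucosyltransferase (0.992). FABP5 averaged 60.5 ± 1.77 FPKM in siC, 39.6 ± 1.76 in siIGF2BP1 and 70.5 ± 1.86 in siSRF. These correlations describe 9 points that fall into 3 groups and share libraries and scaling, and they carry no test.

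EGR1, an immediate early gene that ERK induces through SRF and its TCF co-factors, was at 0.917, 0.938 and 0.969 FPKM in siC and 0.208, 0.262 and 0.301 FPKM in siIGF2BP1, a log2 difference of -1.55 that missed the threshold (limma adjusted p = 0.0120). In siSRF it was at 1.16, 0.979 and 0.821 FPKM, overlapping siC. EGR1 rested on only 5 to 28 reads in a library and was named after its values were seen. The processed pseudogene DUSP5P1 was listed at 0 in the 3 siC and 3 siSRF libraries and held at most 3 reads in a siIGF2BP1 library.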
